A study of Homo sapiens with 15 samples.

Results

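The cytosolic ribosomal protein (RP) genes were taken from the gene counts by name. Protein-coding genes whose symbol is RPL or RPS followed by a number, together with RPLP0, RPLP1, RPLP2 and RPSA, were kept, and S6 kinase genes and pseudogenes were left out. This gave 83 of the 57272 genes in the table, of which 49 code for proteins of the large ribosomal subunit and 34 for the small one. They lie on 22 chromosomes. Of these, 80 had enough reads for the tests. RPL3L, a muscle paralog of RPL3, did not exceed 5 reads in any library, RPL10L, a testis paralog of RPL10, had 0 reads in all of them, and RPS4Y2 was the other gene left untested.

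Ribosomal proteins are built with the rRNAs into the subunits that translate mRNA. Each core protein is needed in a single copy per ribosome except the dimers of the P-stalk, so their mRNAs are abundant and are usually controlled together. Most of these mRNAs start with a C followed by a run of pyrimidines, the 5′ terminal oligopyrimidine (TOP) motif, through which growth signals acting on mTOR and LARP1 set their translation. MYC and RNA polymerase I activity are known to drive ribosome biogenesis in dividing cells.

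RNA was sequenced from MRC-5 cells, primary human fetal lung fibroblasts, in 5 conditions of 3 libraries. Young cells (population doubling, PD, 30) carried the empty lentiviral vector pWPIR-GFP with a control siRNA (young EV), the TRF2 vector pWPIR-GFP-TRF2 with a control siRNA (young TRF2), or the empty vector with siRNA against LMNB1, the gene of Lamin B1 (siLMNB1). Senescent cells had been infected at a pre-senescent stage. They had stopped dividing at PD 71 with the empty vector (senescent EV) or PD 75 with TRF2 (senescent TRF2). Their count columns also name the control siRNA, but the study describes a transfection for young cells only. All groups thus carried a GFP vector. By the study's account, TRF2, a telomere-binding protein, was expressed above its natural level in the TRF2 groups. Senescent cells had carried their vector for longer than young ones, and this cannot be told apart from senescence. The study describes biological replicates, and nothing in the labels says whether they were separate cultures, so the p-values measure the spread between these libraries. The labels mark the 6 senescent libraries, and 0 of the 9 young ones, as a reanalysis of an earlier deposit, so senescence and deposit cannot be told apart.

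In the young groups, the targeted genes matched the labels. LMNB1 was at 58.6 to 61.0 CPM (read counts relative to library size, scaled by TMM) in young EV and at 2.36 to 2.91 with siLMNB1, and TERF2, which codes for TRF2, was at 21.9 to 25.5 in young EV against 128 to 307 in young TRF2. The 8 fibroblast markers were detected, COL1A1 and VIM among them, with a summed level of 19330 to 35090 CPM of all counts, whereas the 4 leukocyte markers summed to at most 3.36 CPM, with CD3E at 0, the 4 endothelial markers to at most 4.0 CPM and the 4 epithelial markers to at most 11.7 CPM. Total counts per library ranged from 26725885 to 43116046. Senescent libraries differed from young ones in GC content: per 10 percentage points of exonic GC, log2 counts shifted by −0.00634 to 0.134 in the young libraries relative to the young EV mean and by 0.460 to 0.506 in 5 senescent libraries. The third senescent EV replicate stood apart, with a shift of 0.823, and the record it is said to derive from is not numbered in sequence with those of the other 5. Counts of RP genes that it moves are also given without it.

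RefSeq (GRCh38.p14) lists start sites for 66 of the 83 genes. At 47 of these 66 genes (71.2%) a listed start was a C followed by at least 4 bases that are each C or T, against 6.35% of 15251 protein-coding genes with a start in the same table. The 8 windows of 30 bases shown are those of genes that the comparisons turn on and of a paralog pair. Each window is read on the strand of the gene, its 16th base is the start, and capitals mark the unbroken run of C and T that holds the start, or the start base alone where it is A or G.
RPL28, chr19:55385917-55385946, plus strand: tcgcccctcgCCTTCCTCTTTCCgtctcag
RPL13A, chr19:49487593-49487622, plus strand: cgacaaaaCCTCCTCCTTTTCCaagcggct
RPS28, chr19:8321481-8321510, plus strand: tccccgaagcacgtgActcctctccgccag
RPS3A, chr4:151099613-151099642, plus strand: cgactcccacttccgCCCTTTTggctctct
RPSA, chr3:39406705-39406734, plus strand: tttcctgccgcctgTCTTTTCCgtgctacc
RPL22, chr1:6199581-6199610, minus strand: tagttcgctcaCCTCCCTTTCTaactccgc
RPS27, chr1:153990747-153990776, plus strand: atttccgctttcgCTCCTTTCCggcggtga
RPS27L, chr15:63157463-63157492, minus strand: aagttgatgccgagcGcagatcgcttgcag
The start of RPS28 is listed at an A. RPS27L, a paralog of RPS27 known as a p53 target, has a G there, whereas RPS27 starts in a run of C and T. A TOP-like start was found at 7 of the 9 genes with a window that rose between young and senescent EV cells and at 16 of the 22 that fell, so genes of both directions carry it.

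RP mRNAs took up between 3.49% and 5.24% of all gene counts. The share was 4.63%, 4.53% and 4.51% in young EV, 4.64%, 3.97% and 4.47% in young TRF2 and 4.65%, 4.71% and 4.84% with siLMNB1. In senescent TRF2 it was 3.67%, 3.74% and 3.61%, below all 9 young libraries. In senescent EV it was 3.69%, 3.49% and 5.24%, so that 2 libraries lay below all young ones and the third replicate above them. The mean in senescent EV was 0.908 times that of young EV, and 0.787 times without the third replicate. With TRF2, the senescent mean was 0.842 times the young one. In bulk RNA, fewer cells of a type and less RNA per cell cannot be told apart, and a share says nothing of the RNA amount per cell.

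The balance between subunits differed as well. Large-subunit genes had 1.52 to 1.61 times the counts of small-subunit genes in the 9 young libraries and 1.68 to 1.74 times in the 6 senescent ones, with no overlap and with the third senescent EV replicate lowest among the senescent libraries. Leaving RP pseudogenes in or out matters little to these shares, since pseudogenes named after the members held 0.0413% to 0.0676% of counts.

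**Figure D1:**
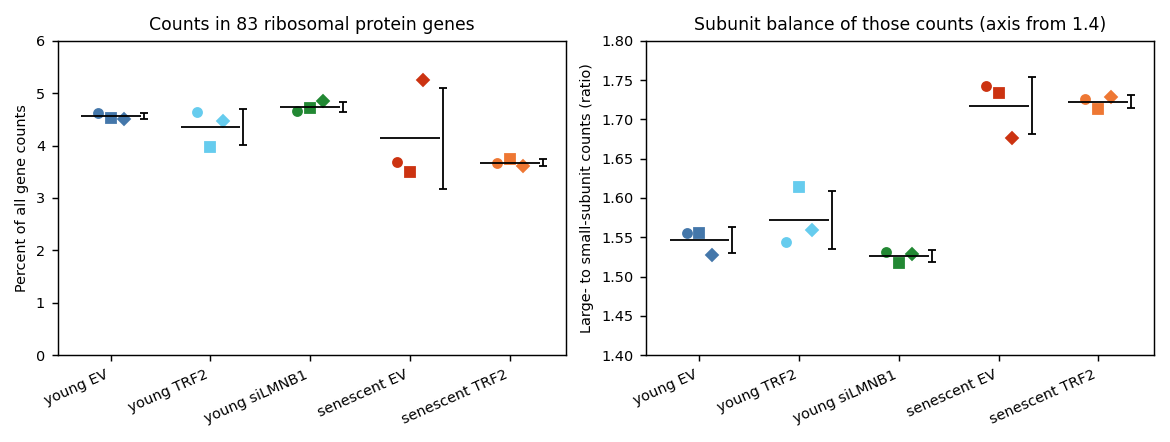
Percent of all gene counts that fall in the 83 RP genes (left) and the ratio of large- to small-subunit counts (right, axis from 1.4) in each library, with circles, squares and diamonds for replicates 1, 2 and 3, lines for means and bars for SD (n = 3). The third senescent EV replicate lies at 5.24%, apart from the other 5 senescent libraries at 3.49% to 3.74%, and the ratio is 1.68 to 1.74 in the senescent libraries and 1.52 to 1.61 in the young ones.

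Between young and senescent cells with the empty vector, 10 RP genes rose and 29 fell, where 32.7% of the 15799 genes tested rose and 31.9% fell (edgeR's quasi-likelihood test, Benjamini-Hochberg adjusted p below 0.05). The median log2 fold change was −0.20 over the RP genes and 0.02 over all genes tested. The changes were small. With a threshold of 1 added on the log2 scale, 1 rose and 4 fell (16.7% and 11.8% of all genes in the fit used here). The study, which used this threshold, lists fewer genes in both senescence comparisons than this fit calls. It kept only protein-coding genes and pseudogenes, whereas genes of every class are counted here. The cause of that gap was not tested. Without the third senescent EV replicate, 7 rose and 54 fell with a median of −0.41, where 30.7% of all genes rose and 33% fell. With all libraries, small-subunit genes had 3 that rose and 14 that fell of 33 (median −0.27), and large-subunit genes 7 and 15 of 47 (median −0.01). The medians were −0.52 and −0.27 without that replicate, and −0.30 and −0.21 with offsets for GC content and length, so the gap between subunits was smaller with the offsets. With TRF2, where no library is shared with the former comparison, 6 rose and 38 fell (28.2% and 30.1% of all genes), with a median of −0.33, and with the threshold of 1 there were 0 rises and 4 falls (11.9% and 12.1%). Both comparisons take their spread from the same model and share the split between deposits. All 6 that rose with TRF2 had risen with the empty vector, 60% of the 10. All 29 that fell with the empty vector also fell with TRF2, 76.3% of the 38. The same overlap over all genes tested was not computed, so it cannot be read as particular to RP genes.

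**Figure D2:**
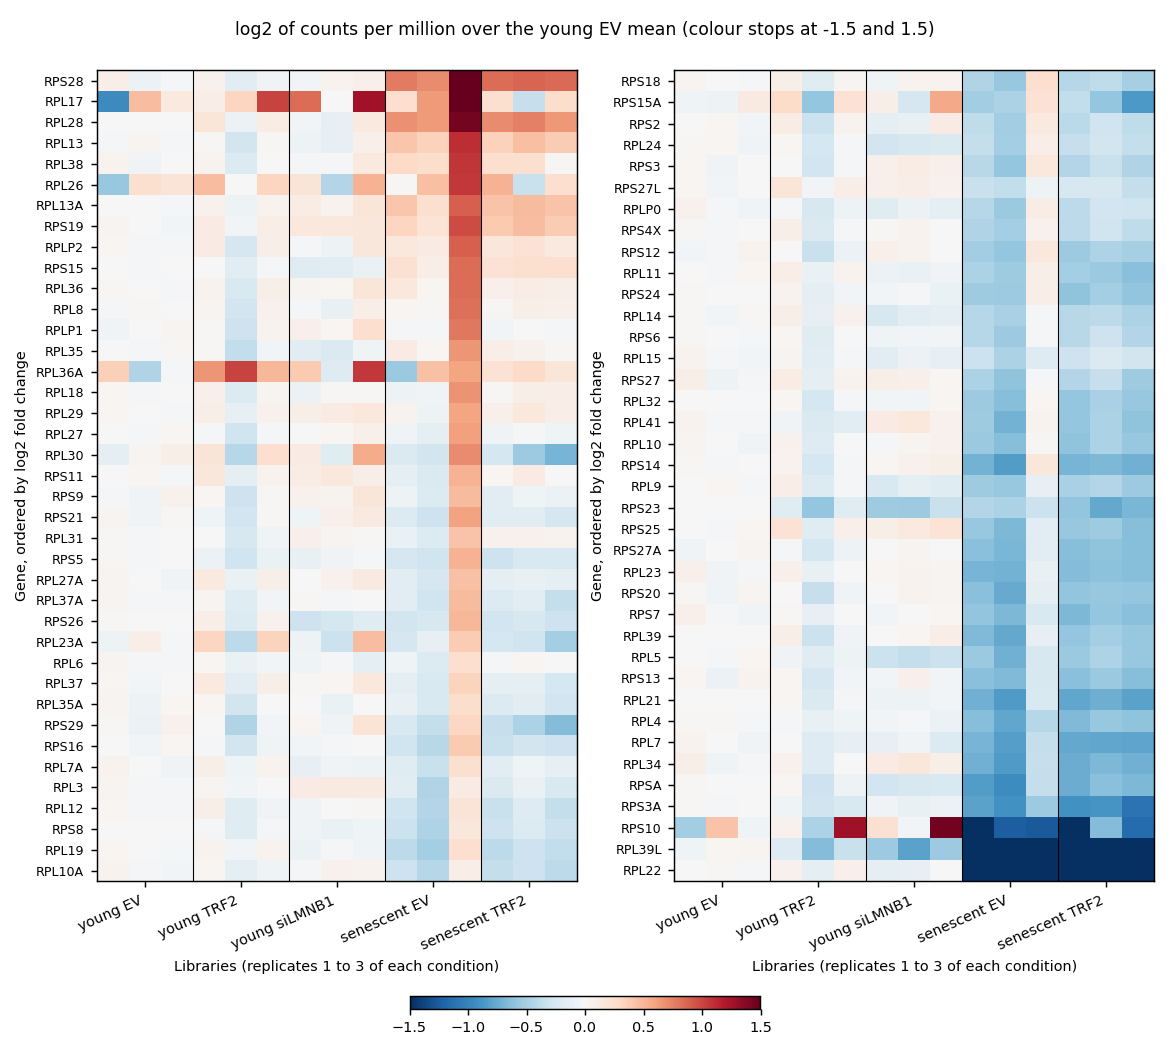
Level of tested RP genes in each library, as log2 of CPM over the young EV mean, for the genes shown singly in the order of their fold change between senescent and young EV cells. Red is higher and blue lower than young EV, and the third senescent EV replicate is redder than its 2 partners over most genes.

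RPL22, a large-subunit protein that is lost in some leukemias (chromosome 1, 6185020 to 6209389), was at 396, 402 and 393 CPM in young EV and at 64.5, 59.2 and 61.8 CPM in senescent EV (log2 fold change −2.68 ± 0.08 SE, n = 3, edgeR adjusted p = 1.50e-13). With TRF2 it went from 415, 362 and 419 CPM to 67.5, 66.8 and 68.7 CPM (−2.56). Young and senescent libraries lay far apart in both comparisons, though the rule for naming genes required that they not overlap. With siLMNB1, RPL22 was at 362 to 396 CPM. It also fell with offsets for GC content and length (−2.61) and without the third senescent EV replicate (−2.70).

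The annotation bears on this gene. In GENCODE 44, RPL22 shares 4.95% of its exonic bases with a gene on the same strand that has no row in the counts used here. Over all genes tested, 27.8% of the 594 that share at least 4% with such a gene fell by 1 or more on the log2 scale between young and senescent EV cells, against 11.1% of the 14860 that share none. With TRF2 the shares were 28.6% and 11.4%, and with siLMNB1, where both groups are young, 2.02% and 3.55%. Its part in the fall of RPL22 was not tested.

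RPL39L, RPS10, RPS3A and RPSA also fell with the empty vector. RPS3A, a small-subunit protein, was at 321, 312 and 320 CPM in young EV and at 183, 169 and 217 CPM in senescent EV (−0.75 ± 0.10, adjusted p = 5.76e-06), and fell with TRF2 too (−0.77). RPSA, a small-subunit protein also known as the laminin receptor, went from 1477, 1451 and 1454 CPM to 816, 762 and 1139 CPM (−0.69 ± 0.12, adjusted p = 0.000135), and all 3 senescent libraries lay below the young ones. RPL21, a large-subunit protein, fell by 0.57 with the empty vector and by 0.70 with TRF2 on the log2 scale. These 3 genes also fell with the offsets in both comparisons, by 0.40 to 0.50. RPS10, another small-subunit protein, had 5 to 32 reads per library in the EV groups, shares 31.5% of its exonic bases with the readthrough gene RPS10-NUDT3, and had a log2 fold change of −1.43 (adjusted p = 0.0411), which turned to 0.55 when the reads of its pseudogenes were added. This call was lost without the second (−1.15) or the third (−1.47) young EV or the first (−1.26), second (−1.54) or the third (−1.55) senescent EV replicate. With TRF2 it had −1.65 (adjusted p = 0.0147), lost without the third young TRF2 (−1.01) or the first senescent TRF2 replicate (−1.35).

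The genes that rose with the empty vector included RPS28, RPL28, RPL13, RPL38, RPL13A, RPS19, RPLP2, RPS15 and RPL36. Without the third senescent EV replicate, RPS15 went from 0.43 to 0.15 (adjusted p = 0.0506) and RPL36 from 0.39 to 0.07 (adjusted p = 0.437), so neither was called. RPS28, a small-subunit protein near the mRNA exit, was at 232, 204 and 212 CPM in young EV and at 372, 352 and 606 CPM in senescent EV (1.04 ± 0.15, adjusted p = 1.73e-05). It rose with TRF2 from 226, 193 and 207 CPM to 386, 394 and 388 CPM (0.90 ± 0.15, adjusted p = 8.35e-05). No young library reached a senescent one, which the rule for naming genes required. With the offsets the log2 fold changes were 0.49 and 0.58. RPL28, a large-subunit protein, went from 424, 422 and 423 CPM to 680, 661 and 1147 CPM (0.97 ± 0.16, adjusted p = 6.09e-05) and rose by 0.63 with TRF2, which was 0.28 with the offsets (adjusted p = 0.068). The third senescent EV replicate had the highest value of both genes, and without it the log2 fold changes were 0.73 and 0.64.

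RPL13 and RPL13A, 2 large-subunit proteins of which the latter is also known for a part in interferon-gamma-dependent translational control, rose by 0.67 and 0.55 with the empty vector (0.36 and 0.31 without the third replicate) and by 0.46 and 0.43 with TRF2. With the offsets they were at 0.27 and 0.28 with the empty vector and at 0.21 and 0.29 with TRF2, where RPL13 was no longer called (adjusted p = 0.0756). RPS19, a small-subunit protein and the gene most often mutated in Diamond-Blackfan anemia, rose by 0.54 and 0.35 (0.24 without that replicate). RPL38, known for its role in the translation of Hox mRNAs, rose by 0.60 with the empty vector (0.26 without the replicate), and its difference with TRF2 was 0.22 (adjusted p = 0.262). RPS19 was at 0.04 in both comparisons with the offsets. With TRF2, the rise of RPS19 was lost without any single library of the 6 (0.30 to 0.37), and that of RPL13 without the second young TRF2 (0.37) or the second senescent TRF2 replicate (0.42).

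**Figure D3:**
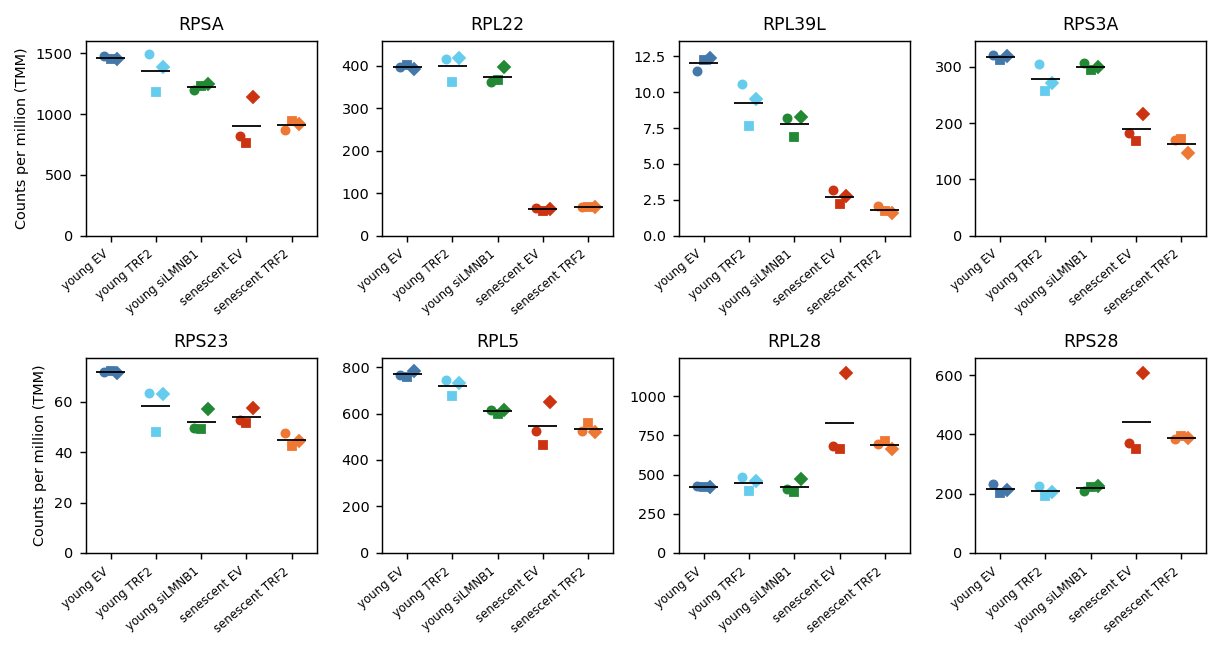
CPM, scaled by TMM, of 8 RP genes in each library (circles, squares and diamonds for replicates 1, 2 and 3, lines for means, n = 3), on linear axes from 0. RPSA, RPL22, RPL39L and RPS3A are lower and RPL28 and RPS28 higher in the senescent libraries, and RPS23 and RPL5 are lower with siLMNB1 than in young EV.

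The rises and falls of RP genes were spread unevenly over GC content. Exonic GC ran from 39.8% to 64.6% over the 80 genes. Of the 32 genes below 46% GC, 0 rose and 18 fell with the empty vector, with adjusted p below 0.05. Of the 24 above 52% GC, 9 rose and 1 fell, but without the third senescent EV replicate 6 rose and 10 fell (median −0.06), against 0 and 27 below 46% GC (median −0.50). Over all genes tested, 876 of 6873 below 46% GC rose and 3553 fell, and 3379 of 5635 above 52% GC rose and 578 fell. Spearman's rho between GC content and log2 fold change over the 80 RP genes, which share their libraries, was 0.476 with the empty vector and 0.502 with TRF2, against 0.0847 with siLMNB1.

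With offsets for GC content and length fitted in each library, 9 RP genes rose and 37 fell with the empty vector, where 27.1% and 30.5% of all genes did. The sets differed in part: 5 genes rose and 17 fell in both fits, and RPL36, RPLP2 and RPS15 turned from rises to falls. Above 52% GC, 4 then rose and 17 fell, and rho became −0.433. With TRF2, 4 rose and 43 fell (24.6% and 30.3% of all genes), 29 of the falls being shared by both fits. Leaving out the third senescent EV replicate as well as using the offsets, a choice made after seeing the data, 4 rose and 55 fell, with a median of −0.42 (26.5% and 30.7% of all genes). RPS28, RPL28, RPL13A and RPL38 were the 4 that rose. Falls thus outnumbered rises under each of these fits, while the direction of single GC-rich genes depended on the offsets.

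**Figure D4:**
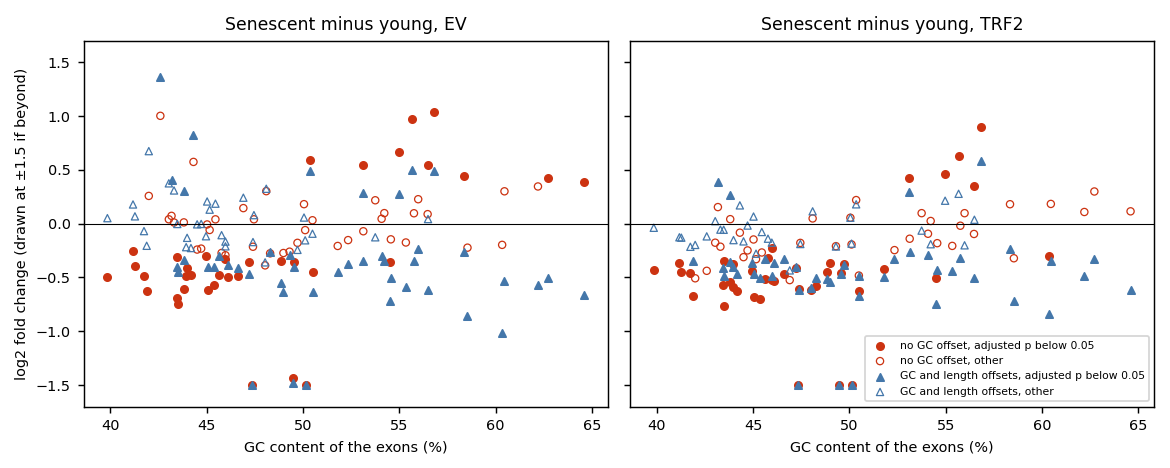
Log2 fold change of the RP genes shown singly against the GC content of their exons, with the empty vector (left) and with TRF2 (right), without offsets (red circles) and with them (blue triangles); filled symbols have an adjusted p below 0.05 and values beyond 1.5 in size are drawn at 1.5. Without offsets the filled rises lie above 50% GC, and with them most genes above 52% GC are below 0.

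The P-stalk recruits translation factors to the large subunit. RPLP0, its base, was at 1812, 1700 and 1664 CPM in young EV and at 1279, 1174 and 1868 CPM in senescent EV (−0.26 ± 0.13, adjusted p = 0.0882), and fell by 0.51 without the third replicate. RPLP1 had a log2 fold change of 0.30 (adjusted p = 0.127) with all libraries and of −0.05 without that replicate. RPLP2 rose by 0.44 (adjusted p = 0.024), which became 0.12 (adjusted p = 0.267) without the replicate and −0.26 with the offsets, and it was not called without the first (0.45), second (0.43) or the third (0.43) young EV replicate. Of the 5S RNP, whose proteins RPL5 and RPL11 are known to bind MDM2 when ribosome assembly fails, RPL5 went from 764, 759 and 783 CPM to 523, 465 and 648 CPM (−0.50 ± 0.10, adjusted p = 0.000355), but was at 0.05 with the offsets. RPL11 had −0.28 (adjusted p = 0.0612), fell by 0.52 without the third senescent EV replicate, and fell by 0.58 with TRF2. RPS6, the S6 kinase substrate, had −0.31 (adjusted p = 0.0216) and was at −0.00 with the offsets, and this call was lost without the first (−0.31) or second (−0.31) young EV or the first (−0.26) or second (−0.21) senescent EV replicate. With TRF2 it had −0.34 (adjusted p = 0.014), lost without the first young TRF2 replicate (−0.31) and with the offsets (−0.06, adjusted p = 0.66). RPS27A, which is made as a fusion with ubiquitin, fell by 0.47, and by 0.30 with the offsets.

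Paralogs and other ribosomal proteins outside the naming rule were examined next. RPL39L, the paralog of the exit-tunnel protein RPL39 best known from the testis, was at 11.5, 12.3 and 12.4 CPM in young EV, at 3.16, 2.22 and 2.79 CPM in senescent EV and at 2.07, 1.72 and 1.57 CPM in senescent TRF2. It fell by 2.14 with the empty vector and by 2.38 with TRF2 on the log2 scale (adjusted p = 1.08e-08 and 4.64e-09, edgeR), and shares no exonic base with another gene. RPL39 fell by 0.49 and 0.47. Per kilobase of the canonical transcript, RPL39L was at 2.28% ± 0.11 (SD, n = 3) of RPL39 in young EV, 1.44% ± 0.14 with siLMNB1, 0.747% ± 0.188 in senescent EV and 0.498% ± 0.079 in senescent TRF2. The senescent EV libraries were all below the young EV ones in this ratio.

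RPS27 and RPS27L had −0.34 and −0.25 with the empty vector and −0.45 and −0.36 with TRF2, but RPS27L was at 0.18 and −0.13 with the offsets. With the empty vector, RPS27 was not called without the first young EV (−0.30) or the first (−0.29) or second (−0.23) senescent EV replicate, nor RPS27L without the first young EV (−0.24) or the second senescent EV replicate (−0.20). RPL10, whose paralog RPL10L had no reads, had −0.36 and −0.51, and the former call was lost without the first (−0.34) or second (−0.36) young EV or the first (−0.28) or second (−0.24) senescent EV replicate. RPL3 had −0.15 and −0.18 (adjusted p = 0.242 and 0.158). With the offsets RPS27 was at −0.55 and −0.51, RPL10 at −0.72 and −0.75 and RPL3 at −0.50 and −0.43, all with adjusted p below 0.05. RPL22L1, the paralog of RPL22, also fell, from 81.3, 80.5 and 82.4 CPM to 25.3, 19.8 and 27.3 CPM with the empty vector (−1.75) and by 1.87 with TRF2, so both paralogs were lower in senescent cells. RPL36AL fell by 0.55, and RPL26L1 by 0.59. FAU, which carries RPS30, had 0.21 (adjusted p = 0.286).

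With siLMNB1 in young cells, 3 RP genes fell and 0 rose, where 16.1% of all genes fell and 16.4% rose. At an unadjusted p below 0.05 there were also 3 falls and 0 rises, where 20.4% of all genes fell and 22.2% rose, and DESeq2 gave 3 and 0. These fits all took their spread from the libraries of every condition, so they are not separate checks of it. RPS23, a small-subunit protein at the decoding site, was at 71.9, 72.2 and 71.2 CPM in young EV and at 49.8, 49.3 and 57.1 CPM with siLMNB1 (−0.46 ± 0.10, adjusted p = 0.00305). RPL39L went to 8.23, 6.90 and 8.28 CPM (−0.63 ± 0.15, adjusted p = 0.00379). RPL5 went to 617, 600 and 614 CPM (−0.33 ± 0.10, adjusted p = 0.0158), with 0.092 as the adjusted p under the offsets, and was not called without the third young EV (−0.32) or the second siLMNB1 replicate (−0.32). In each of the 3 genes no siLMNB1 library reached the young EV range.

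The median log2 fold change over the 80 RP genes with siLMNB1 was 0.02, against 0.04 for all genes. The 6 libraries of this comparison fitted alone gave 9 rises and 13 falls (27.7% and 27.7% of the 14463 genes tested in that fit), of which the largest besides the 3 genes above were the falls of RPSA (−0.25), RPL24 (−0.25) and RPS26 (−0.25). The largest rise in that fit was 0.16, of RPS19. For RPS23, RPL39L and RPL5 the SE was 0.061, 0.108 and 0.040 there, against 0.105, 0.146 and 0.098 with all libraries. The number of calls thus depended on which libraries set the spread. With the study's threshold of 0.58 added, RPL39L was the single call, where 10.3% of all genes rose and 8.06% fell. With the offsets, 0 rose and 5 fell (RPL24, RPL35, RPS15, RPL39L and RPS23), where 17% of all genes rose and 21.8% fell. RPL26L1, outside the naming rule, fell the most of the ribosomal proteins examined here, from 33.1, 33.9 and 30.2 CPM to 12.4, 11.8 and 13.6 CPM (−1.36 ± 0.13, adjusted p = 1.11e-06).

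With TRF2 against the empty vector in young cells, no RP gene was called. There were 0 calls with edgeR and 0 with DESeq2, where 0.152% of all genes rose and 0.0253% fell. At an unadjusted p below 0.05 there were 0 rises and 2 falls (RPS23 −0.30 and RPL39L −0.38), where 6% of all genes rose and 3.66% fell. The second young TRF2 replicate had the lowest RP share of the young libraries. In senescent cells, TRF2 against the empty vector gave 1 fall, that of RPL39L (−0.61 ± 0.18, adjusted p = 0.0396, or 0.086 with the offsets), and 0 rises, where 6.41% of all genes fell and 4.87% rose. At an unadjusted p below 0.05 there were 7 falls and 0 rises, where 15.2% of all genes fell and 12.9% rose, and DESeq2 also gave 1 fall. With the offsets there were 0 calls, where 7.36% of all genes rose and 8.37% fell.

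In that comparison 76 of the 80 RP genes had a negative log2 fold change, with a median of −0.17. Without the third senescent EV replicate 17 did, with a median of 0.06 and 0 calls (5.34% of all genes rose and 5.5% fell), and RPL39L was at −0.59 (adjusted p = 0.0805). The negative values thus rested on that library. RPL39L was also not called without the first senescent EV (−0.49) or the first (−0.73), second (−0.59) or the third (−0.52) senescent TRF2 replicate. RPL22L1 fell by 0.54 (adjusted p = 0.00941), which was lost without the first senescent TRF2 replicate (−0.51). The interaction, which asks whether senescence moved a gene differently with TRF2 than with the empty vector, gave 0 calls with edgeR and 0 with DESeq2 among RP genes, where 0.177% of all genes rose and 0.956% fell. At an unadjusted p below 0.05 it gave 0 rises and 1 fall (RPL17), where 5.77% of all genes rose and 10.1% fell. Senescent TRF2 cells were at PD 75 and senescent EV cells at PD 71. By the study's account, senescent TRF2 cells had also carried the TRF2 vector for longer than young TRF2 cells. In both comparisons, TRF2 cannot be told apart from these differences.

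Genes that make ribosomes or regulate RP mRNAs were compared in the same fits. Of 63 ribosome biogenesis genes, 7 rose and 44 fell with the empty vector (median −0.54), 6 and 47 with TRF2 (−0.51), and 1 and 23 with siLMNB1 (−0.24). NOP2, a methyltransferase of 28S rRNA, had the smallest adjusted p of the falls (46.8, 44.3 and 45.2 CPM against 0.112, 0.296 and 0.292 CPM) and EMG1, a pre-rRNA methyltransferase, that of the rises (1.95, 3.61 and 3.50 CPM against 29.0, 26.0 and 40.4 CPM). NOP2 shares 54.4% and EMG1 11.2% of exonic bases with same-strand genes that have no row in the counts used here. Of the 15 other TOP genes tested, 13 fell and 0 rose with the empty vector (median −0.53), among them HNRNPA1, a splicing factor, at 1102, 1017 and 1049 CPM against 330, 299 and 330 CPM. With the offsets, 9 of these 15 fell and 0 rose (median −0.38), where 30.5% of all genes fell and 27.1% rose. With siLMNB1, 3 of these 15 fell. Over all genes tested, 32.7% rose and 31.9% fell with the empty vector, 28.2% and 30.1% with TRF2 and 16.4% and 16.1% with siLMNB1.

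Of 7 proteins that escort newly made RPs, 5 fell and 0 rose with the empty vector (median −0.78, but −0.28 with 3 falls under the offsets), with NAP1L1 at −0.80 (−0.19 with the offsets). Of 10 regulators of TOP mRNAs, 3 rose and 3 fell (0 and 4 with the offsets), with RPS6KB2, an S6 kinase, at 0.88 and EIF4E, the cap-binding protein, at −0.74, which were 0.23 and −0.18 with the offsets. Over all genes tested, 32.7% rose and 31.9% fell in this comparison, and 27.1% and 30.5% did so with the offsets. MYC went from 41.2, 37.6 and 34.6 CPM to 25.06, 25.04 and 27.41 CPM (−0.55, adjusted p = 0.000458), and MXD4, an antagonist of MYC, rose by 1.60. Of the 7 tested genes in the list of MYC and its partners, 4 rose and 2 fell with the empty vector (median 0.49). With the offsets 3 rose and 3 fell (median 0.10). The 8 proliferation markers all fell in both senescence comparisons, with a summed level of 581 to 621 CPM in young EV, 302 to 307 with siLMNB1 and 77.9 to 86.9 in senescent EV. Their part in the RP result was not tested.

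The 78 mitochondrial ribosomal protein genes had 15 rises and 35 falls with the empty vector (median −0.10) and 0 rises and 14 falls with siLMNB1 (−0.10). With the offsets these were 8 and 40 (−0.22) and 0 and 28 (−0.18). MRPL41 had the smallest adjusted p of their rises (1.06, but −0.46 with the offsets) and MRPL2 that of the falls (−5.92, with 29.2% of its exonic bases shared with a gene that has no row in the counts used here). Of 114 RP pseudogenes with enough reads, 44 rose and 11 fell with the empty vector (median 0.57) and 38 and 14 with TRF2 (0.47). With the offsets there were 26 rises and 14 falls (0.24) and 30 and 17 (0.20). Over all genes tested, 32.7% rose and 31.9% fell with the empty vector, 28.2% and 30.1% with TRF2 and 16.4% and 16.1% with siLMNB1. With the offsets these shares were 27.1% and 30.5%, 24.6% and 30.3%, and 17% and 21.8%. Reads can be exchanged between RP genes and their near-identical pseudogenes, and adding pseudogene reads to their parents gave 13 rises and 28 falls of RP genes with the empty vector.

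**Figure D5:**
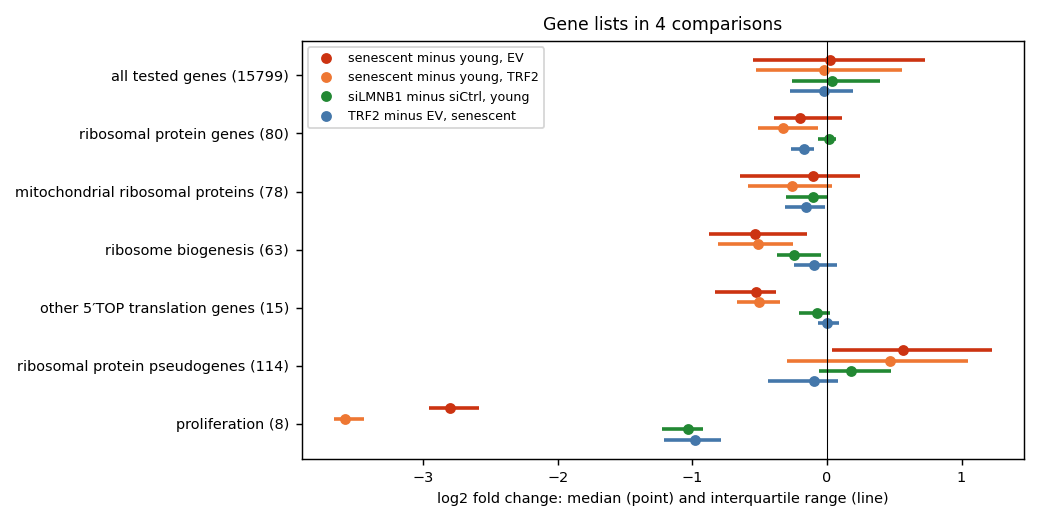
Median (points) and interquartile range (lines) of log2 fold changes for all tested genes and 6 gene lists in 4 comparisons, with the number of genes tested in parentheses. RP genes sit at −0.20 and −0.33 in the senescence comparisons, ribosome biogenesis genes at −0.54 and −0.51, and RP pseudogenes at 0.57 and 0.47 in them.

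Some RP genes had few reads for genes of this class. RPL17 had 6 to 44 reads per library, RPL36A 11 to 57 and RPS10 5 to 87. These genes share 32.9%, 8.40% and 31.5% of their exonic bases, in this order, with annotated genes on the same strand, and the part of this in their low counts was not tested. In all, 47 of the 83 genes share exonic bases with another annotated gene, 35 of them on their own strand. Of the 36 that share none, 2 rose and 9 fell with the empty vector and 1 rose and 17 fell with TRF2. Over all genes tested, 32.7% rose and 31.9% fell with the empty vector and 28.2% and 30.1% with TRF2. Per kilobase of the canonical transcript, RPS18 at 2003, RPS27 at 1647 and RPLP0 at 1561 CPM were the highest in young EV, and the median of 81 RP genes was 664. RPL14 and RPL37 were at 85.7 and 60.1, but their canonical transcripts are given as 7136 and 7573 bases against a median of 827 over the tested RP genes, so a level per kilobase depends on the transcript chosen.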

How the data were processed

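Raw read counts per gene were deposited, without normalization. According to the methods of the study, the authors had cleaned reads with Trimmomatic and aligned them with STAR, which also did the counting, on GRCh38. The annotation release and strand setting are not given in the sources used here. All columns were mapped to samples by name. Symbols, exons and overlaps were taken from GENCODE 44, and 324 of 57272 genes (0.0563% of counts) are absent from it.

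After filterByExpr, a single edgeR 4.0.16 model (R 4.3.3, limma 3.58.1) with TMM scaling held all 15 libraries, with a mean per condition. P-values of the quasi-likelihood test were adjusted by Benjamini-Hochberg over all 15799 genes that passed. SE is the size of the log2 fold change over the square root of the test's F. A gene rose or fell at an adjusted p below 0.05, and CPM was scaled by TMM. GC and length offsets were loess curves (span 0.3, prior count 1) per library against the young EV mean. DESeq2 1.42.0 was an alternative, and Python 3.11.15 with pandas 2.3.3 served for sequences and figures. The steps were tested on simulated data.

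The genes named were the 6 largest rises and falls in each senescence comparison whose senescent libraries all lay on one side of the young ones, the 4 smallest adjusted p per direction elsewhere, fixed genes (stalk, 5S RNP, RPS6, RPSA, RPS27A and paralog pairs), and the gene with the smallest adjusted p per direction of each list. Members and lists were chosen with earlier results of these data known. RPS4Y1 and RPS4Y2 are counted but not shown singly, and a few other genes are not reported here by name though counts and medians include them. Replicate pairs differed by more than sampling noise. Alternatives were other normalizations, filters and tests, a replicate block, offsets, summed pseudogene reads, unshared exons, the study's fold thresholds and each library left out in turn.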

Additional observations from a re-analysis of the deposited data

How the results depend on the processing

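With the empty vector, 39 RP genes were called between young and senescent cells, and with TRF2 44. Over all genes tested, 32.7% rose and 31.9% fell with the empty vector and 28.2% and 30.1% with TRF2. Counting only RP genes free of exonic overlap left 11 and 18, fewer genes by construction, and the study's fold threshold left 5 and 4. Leaving out each library in turn gave 30 to 61 calls with the empty vector, 61 being without the third senescent EV replicate, and 34 to 47 with TRF2. Without the third senescent EV replicate, 30.7% of all genes rose and 33% fell. Offsets without that replicate, chosen after seeing the data, gave 59 (26.5% and 30.7% of all genes rose and fell). The 3 calls with siLMNB1 became 5 with offsets, 22 with only the libraries compared, 1 with no shared base and 1 with the fold threshold. Over all genes, 16.4% rose and 16.1% fell, which became 17% and 21.8% with offsets and 27.7% and 27.7% with only the libraries compared. The single call of TRF2 in senescent cells became 7 with no filter on low counts, 0 with offsets, 0 with only the libraries compared and 0 to 8 with each library left out. Over all genes, 4.87% rose and 6.41% fell in this comparison, and 7.36% and 8.37% with offsets. Shares of all genes are given here for some of the settings only. The interaction gave 1 call with no filter. In CPM scaled by TMM, the summed RP level in senescent TRF2 was 0.858 times that in young TRF2 and with siLMNB1 0.988 times that in young EV. Leaving out each library put the first of these ratios, by share of counts, at 0.807 to 0.870. The cause of these changes was not tested.

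Same-numbered replicates did not deviate together (correlations of −0.0945 to 0.0615), so the numbers were not taken to pair the samples. With a replicate block, 41 RP genes were called with the empty vector, 45 with TRF2, 3 with siLMNB1, 0 and 1 for TRF2 in young and senescent cells and 0 for the interaction. Offsets with the block gave 6 with siLMNB1 and 2 for TRF2 in senescent cells.

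Directions that turned are given as log2 fold changes with the empty vector first. With offsets, RPL5 was at 0.051, RPLP2 at −0.26, RPS27L at 0.18, FAU at −0.17 and MRPL41 at −0.46, and with offsets and the block at 0.034, −0.26, 0.16, −0.17 and −0.46. With offsets and without the third senescent EV replicate, RPS19 was at −0.063, RPLP2 at −0.32, FAU at −0.26 and MRPL41 at −0.38. RPS10 was at 0.55 with pseudogene reads added. Leaving out each library put RPLP1 at −0.048 to 0.44 and FAU at −0.10 to 0.33. With TRF2, RPLP2 was at −0.24 and MRPL41 at −0.26 with offsets and at −0.23 and −0.25 with the block too, and leaving out each library put RPLP1 at −0.064 to 0.11 and FAU at −0.15 to 0.046. Among single genes, 1197 of the alternative values kept direction and side of the threshold, 87 lost the call, 24 gained one and 24 turned. Any value that kept direction but had no adjusted p is counted among the 1197. Low counts limit RPS10, RPL17 and RPL36A.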
